A study of Mus musculus with 4 samples.

Results

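The nuclear genes of the mitochondrial respiratory chain were examined for nearby binding of CTCF, the zinc-finger protein found at insulators and at the anchors of chromatin loops. Members were the protein-coding genes on chromosomes 1 to 19 whose symbols start with Nduf, Uqcr, Atp5 or Cox followed by 4, 5, 6, 7 or 8, together with Sdha, Sdhb, Sdhc and Sdhd. This gave 93 of 20665 protein-coding genes on those chromosomes. They comprised 39 genes listed here as complex I subunits, 8 complex I assembly factors (Ndufaf genes), 4 genes of complex II, 8 of complex III, 17 of complex IV and 17 of complex V. A symbol rule also takes in relatives of subunits, such as Ndufa4l2 and the additional loci Ndufb4b and Ndufb4c. The complex groups were set by symbol alone, so a gene such as Ndufa4 stands under complex I by its name, whatever complex its protein belongs to. A CTCF region was assigned to a member when its summit, the position of highest signal, lay within 10 kb of the gene span in the mm10 mouse genome.

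CTCF had been mapped by chromatin immunoprecipitation and sequencing in isolated heart muscle cells (cardiac myocytes) of C57BL/6 mice, with left ventricle as the tissue. The libraries used were 1 labelled CTCF knockout and 1 labelled control, each from myocytes pooled from 3 hearts. Age, sex and the driver of the deletion are not given in these sources, and the 2 input libraries were not analysed here. With 1 library per genotype there was no replicate and no test between genotypes, so every statement below is about these libraries, with intervals for counting error alone. Region lists hold no expression values, so neither the loss of Ctcf itself nor the purity of the myocytes was checked, and the first library is called by its label. It had 16128 regions over the whole genome and the control library 20043. The authors' fold enrichment of a region is its signal over the local background of the same library. Regions are ranked by it within their own list, and where both libraries' values are given, no direction between the libraries is read from them.

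The respiratory chain passes electrons from NADH through complex I, or from succinate through complex II, to coenzyme Q, complex III, cytochrome c and finally to oxygen at complex IV. Complexes I, III and IV pump protons across the inner mitochondrial membrane, and complex V, the ATP synthase, uses the returning protons to make ATP. Heart muscle depends on this supply, and for several complex IV subunits it uses isoforms that differ from those of most other tissues. Most of the proteins are encoded in the nucleus, scattered over many chromosomes, and their promoters are known targets of the transcription factors NRF1, GABPA (an ETS factor) and YY1, with co-activators of the PGC-1 family.

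Some of these genes carried CTCF directly at their start. The promoter windows below, from RefSeq on GRCm38.p6 (the mm10 assembly), run 5′ to 3′ along the gene from 250 bases before to 50 after a listed start. Each held the summit of a CTCF region in both libraries. They include the member region with the highest control fold enrichment (Atp5g2) and the pair of regions with the lowest ratio of labelled-knockout to control reads (Ndufaf4 and Ndufa6). Windows of Ndufab1, Ndufb7, Ndufb10, Ndufv1 and Atp5c1 also held a summit of both libraries and are not printed. Capitals mark a match to a short CTCF core, searched as CNAGGNGGC or CNAGANGGC on both strands, with N for any base. The windows are Atp5g2 at chr15:102670998-102671297 (reverse strand), Ndufaf4 at chr4:24897833-24898132 (forward), Ndufa6 at chr15:82354242-82354541 (reverse), Atp5k at chr5:108434350-108434649 (reverse), Ndufc1 at chr3:51408906-51409205 (reverse) and Uqcrc1 at chr9:108936398-108936697 (forward).
Atp5g2: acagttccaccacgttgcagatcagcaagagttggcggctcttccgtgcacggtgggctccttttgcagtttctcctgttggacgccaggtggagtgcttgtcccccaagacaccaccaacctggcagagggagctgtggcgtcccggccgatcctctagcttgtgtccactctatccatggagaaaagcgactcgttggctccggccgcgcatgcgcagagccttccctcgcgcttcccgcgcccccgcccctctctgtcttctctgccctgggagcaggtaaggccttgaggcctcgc
Ndufaf4: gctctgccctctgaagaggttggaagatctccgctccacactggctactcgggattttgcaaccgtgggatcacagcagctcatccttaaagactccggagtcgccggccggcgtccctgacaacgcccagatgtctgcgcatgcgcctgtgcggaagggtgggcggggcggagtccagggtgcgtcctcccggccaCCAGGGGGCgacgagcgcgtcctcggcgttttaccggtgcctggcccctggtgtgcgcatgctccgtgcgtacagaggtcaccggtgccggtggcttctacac
Ndufa6: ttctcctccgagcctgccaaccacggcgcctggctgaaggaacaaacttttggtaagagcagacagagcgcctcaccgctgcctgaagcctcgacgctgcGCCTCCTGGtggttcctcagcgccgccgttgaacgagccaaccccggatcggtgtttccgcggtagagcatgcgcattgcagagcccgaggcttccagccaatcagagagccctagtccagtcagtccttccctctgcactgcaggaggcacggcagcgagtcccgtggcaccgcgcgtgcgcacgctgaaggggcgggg
Atp5k: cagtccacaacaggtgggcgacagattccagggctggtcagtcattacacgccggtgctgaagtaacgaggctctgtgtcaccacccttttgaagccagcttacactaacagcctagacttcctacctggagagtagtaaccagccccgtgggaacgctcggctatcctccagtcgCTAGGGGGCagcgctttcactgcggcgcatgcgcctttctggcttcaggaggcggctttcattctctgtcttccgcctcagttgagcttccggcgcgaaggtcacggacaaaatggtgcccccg
Ndufc1: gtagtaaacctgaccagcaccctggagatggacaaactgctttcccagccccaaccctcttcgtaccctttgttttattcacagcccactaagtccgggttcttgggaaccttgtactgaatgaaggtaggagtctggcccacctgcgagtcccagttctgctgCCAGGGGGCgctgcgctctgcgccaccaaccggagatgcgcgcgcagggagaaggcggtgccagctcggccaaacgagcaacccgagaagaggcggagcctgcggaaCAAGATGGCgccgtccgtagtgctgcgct
Uqcrc1: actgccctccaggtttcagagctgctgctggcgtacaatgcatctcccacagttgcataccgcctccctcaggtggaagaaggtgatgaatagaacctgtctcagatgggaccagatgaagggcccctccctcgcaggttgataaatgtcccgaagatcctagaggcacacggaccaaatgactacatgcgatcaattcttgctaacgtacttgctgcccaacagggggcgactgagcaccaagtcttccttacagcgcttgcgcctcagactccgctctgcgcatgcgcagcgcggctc

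Positions were counted from 1 at the first printed base, and the start follows the first 250 bases. In Ndufaf4, a complex I assembly factor gene, the core occupied bases 198 to 206, and the summit lay at base 205 in the labelled-knockout library and at base 209 in the control. In Ndufa6, a small accessory subunit gene, the core ran from base 101 to 109 on the opposite strand to the gene, with summits at base 88 in the labelled knockout and 105 in the control. Atp5k, which encodes subunit e of the ATP synthase membrane part, had its core at bases 177 to 185 and summits at base 160 in the labelled knockout and 215 in the control. Ndufc1, an accessory subunit gene, had matches at bases 165 to 173 and 272 to 280, and the labelled-knockout summit at base 177 lay nearer to the first of them than the control summit at base 116. In Atp5g2 and Uqcrc1 no exact match to these letters lay in the window. The Atp5g2 summit lay at base 121 in the labelled knockout and 104 in the control. The Uqcrc1 summit lay at base 217 in the labelled knockout and 188 in the control. Near matches were not marked, such as the one after the labelled-knockout summit of Uqcrc1, which differs in its first base only. Of the windows not printed, those of Ndufab1, Ndufb10 and Atp5c1 held no exact match. The centre of the exact match lay 105 bases from the labelled-knockout summit and 52 from the control summit in Ndufb7. In Ndufv1 it lay 54 bases from the labelled-knockout summit and 59 from the control summit. Sites that differ from the searched letters may lie nearer to these summits and were not measured.

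Windows that held a summit had the CTCF core more often than windows without one, over all genes and among the members. Among promoter windows of all protein-coding genes on these chromosomes that were in the table, the core was found in 39.8% of the 731 windows with a labelled-knockout summit and in 14.8% of the 19354 without one. For control summits it was found in 35.6% of 1011 windows with a summit and 14.6% of 19074 without. Among the 80 windows of the 75 members with a listed start, 6 of 11 with a labelled-knockout summit and 6 of 12 with a control summit had a match, against 12 of 69 windows without a labelled-knockout summit and 12 of 68 without a control summit. Windows with a summit were also richer in GC, with a median of 61% against 57.3% for labelled-knockout summits in the members, and the part of base composition in these matches was not tested.

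Motifs of known regulators of the respiratory chain were searched in the same windows. The NRF1 motif (GCGCNTGCG) was present in 26 of 75 members (34.7%, Wilson 95% interval 24.9 to 45.9) and in 9.92% of 16457 protein-coding genes. The ETS motif (CCGGAAG) was present in 25.3% of members (16.9 to 36.2) and 13.3% of all genes, and the YY1 motif (ATGGCGG) in 14.7% (8.39 to 24.4) and 6.14%. The CTCF core stood at 24.0% of members (15.8 to 34.8) and 17.8% of all genes, and here the members' interval covers the share of all genes. The sizes of these gaps were not tested against each other. Both strands were searched, a match to one motif may overlap a match to another, and member windows held a median of 20 CpG dinucleotides against 14 in all windows. NRF1 letters lay in the windows of Atp5g2, Ndufaf4, Ndufa6, Atp5k and Uqcrc1 printed above, and not in that of Ndufc1.

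**Figure D1:**
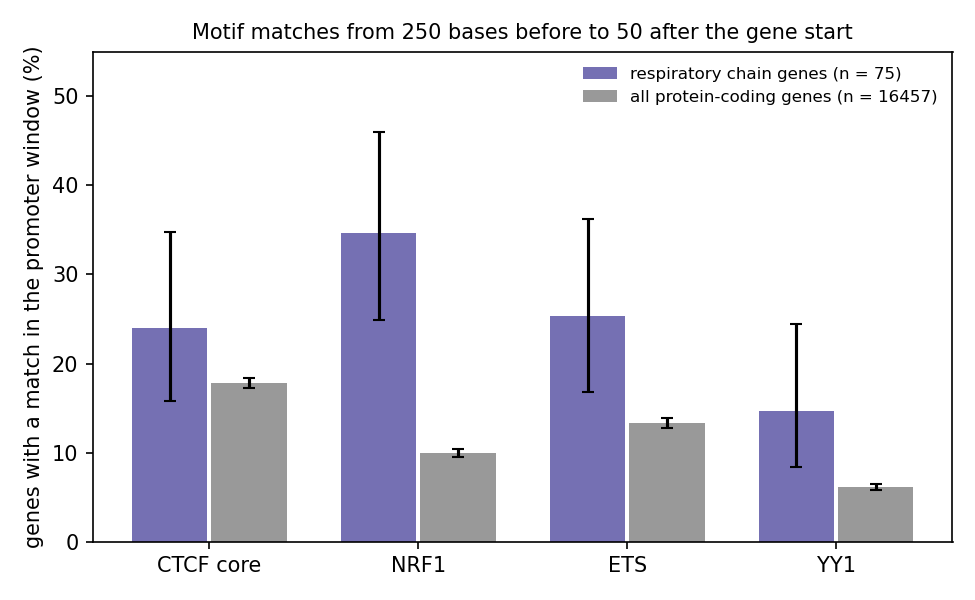
Share of genes (%) with a motif match in the window from 250 bases before to 50 after a listed start, for the 75 respiratory chain genes with a listed start (left bars) and all 16457 protein-coding genes with one (right bars). Lines are Wilson 95% intervals, and the widest gap is for NRF1, at 34.7% against 9.92%.

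CTCF regions lay near 52 of the 93 respiratory chain genes in at least 1 library, and most were called in both libraries. Within each list the share of members with a region was close to that of all genes. Among genes spanning less than 20 kb it was above that of all such genes, a comparison added after the data were examined. In the labelled-knockout library 72 regions lay within 10 kb of a member, at 47 of the 93 genes (50.5%, Wilson 95% interval 40.6 to 60.5), and in the control library 91 regions at 52 genes (55.9%, 45.8 to 65.6). Of all 20665 protein-coding genes, 46.3% had a region in the labelled knockout and 52.4% in the control. The members are short genes, with a median span of 7.39 kb against 17.5 kb for all genes. Among genes spanning less than 20 kb, 42 of 79 members had a labelled-knockout region (53.2%, 42.3 to 63.8) and 44 a control region (55.7%, 44.7 to 66.1), where the shares over all 11089 such genes were 38.6% in the labelled knockout and 43.8% in the control. No region lay near more than 1 member.

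Of the 91 control regions, 66 (72.5%, interval 62.6 to 80.6) overlapped a labelled-knockout region by at least 1 bp and are called kept. The other 25 are called control-only, which means that the labelled-knockout list has no overlapping region, not that signal was absent. Near all protein-coding genes 68.5% of 14899 control regions were kept, a share inside the members' interval. In the reverse direction 7 of the 72 labelled-knockout regions (9.72%, 4.79 to 18.7) overlapped no control region, against 13.3% near all genes. The control-only regions were weak ones: their control fold enrichment ran from 4.38 to 7.36 with a median of 5.78, while that of the kept regions ran from 3.85 to 25.9 with a median of 8.34. All 24 member regions with a control fold enrichment of at least 10 were kept, as were 97.6% of 3092 such regions near all genes. From 8 to 10, 10 of 10 were kept (72.2 to 100%), against 90.4% of 2576 near all genes, and from 6 to 8, 15 of 25 (60%, 40.7 to 76.6), against 70.8% of 3926. Below a fold enrichment of 6, 17 of 32 were kept (53.1%, 36.4 to 69.1), against 39.1% of 5305 near all genes. In each of these ranges the members' interval covers the share of all genes.

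**Figure D2:**
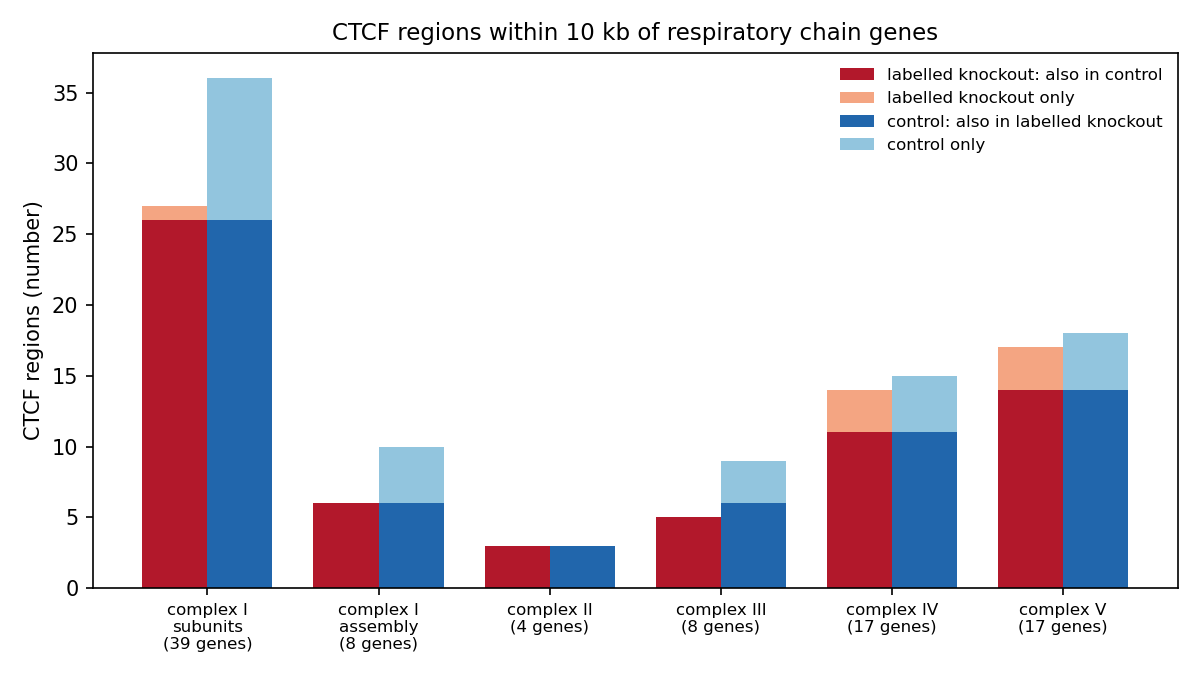
Number of CTCF regions with a summit within 10 kb of a gene, by complex, in the labelled-knockout library (left bar, red) and the control library (right bar, blue). Dark parts overlap a region of the other list and pale parts do not, and complex II is the group with 3 regions in each list and none called in a single list.

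By gene, 35 members kept every control region, 9 kept some and 8 kept none. Of those 8, Cox5a, Cox6b1 and Ndufb6 had a region elsewhere that was called only in the labelled knockout, and the other 5, Ndufa12, Ndufa13, Ndufaf2, Uqcrc2 and Atp5a1, had no labelled-knockout region at all. This split depends on how many regions a gene has, and 26 members had 1 control region. It was not made for all protein-coding genes, near which 68.5% of control regions were kept, so it is not read as a trait of the members. The remaining 41 members had no region in either list. Their nearest labelled-knockout summit lay between 10.7 kb (Sdhc) and 1117 kb (Cox7b2) away, with a median of 45.0 kb, and their nearest control summit between 10.4 kb (Ndufa3) and 625 kb (Cox7b2), with a median of 41.5 kb. At the 10 kb limit, the last labelled-knockout summit inside was 9.66 kb from Ndufa4l2 (fold enrichment 5.48) and the first outside was 10.1 kb from Cox6a1 (12.6). In the control the last inside was 9.76 kb from Ndufa4l2 (6.98) and the first outside 10.0 kb from Cox4i1 (4.87).

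Complex I is the entry point of electrons from NADH. Its subunit genes, the largest group of members, held 27 regions in the labelled knockout at 18 of 39 genes and 36 in the control at 20. Of all protein-coding genes 46.3% had a labelled-knockout region and 52.4% a control region. Of the control regions 26 were kept (72.2%, 56.0 to 84.2), and 1 labelled-knockout region was outside the control list. Ndufa4l2, a relative of the subunit gene Ndufa4 that is known to be induced by low oxygen, had more regions than any other member, 3 in the labelled knockout and 6 in the control. Its strongest region, inside the gene (chr10:127512808-127513164 in the control), had 46 reads in the labelled knockout and 49 in the control. Reads here are pileups at the summit recovered from the authors' fold enrichment and −log10 p, with exact Poisson 95% intervals of 33.7 to 61.4 in the labelled knockout and 36.3 to 64.8 in the control. The fold enrichment was 24.6 in the labelled knockout, at percentile 99.8 of that list, and 21.6 in the control, at percentile 99.6. Kept regions of Ndufa4l2 also lay 142 bp outside the span (21 reads in the labelled knockout and 22 in the control) and 9.76 kb away (10 reads in the labelled knockout and 13 in the control), and its 3 control-only regions had 9 to 16 reads.

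At the start of Ndufab1, the mitochondrial acyl carrier protein that is also a complex I subunit, a region had 18 reads (10.7 to 28.4) in the labelled knockout and 31 reads (21.1 to 44.0) in the control. A second region inside Ndufab1 had 13 reads in the labelled knockout and 15 in the control. Ndufb8, an accessory subunit of the membrane arm, had kept regions 7.31 kb upstream (27 reads in the labelled knockout, 35 in the control) and 3.62 kb beyond its far end (21 in the labelled knockout, 22 in the control). Both lay nearer to another gene than to Ndufb8.

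Several genes for the catalytic core kept their regions, where 68.5% of control regions near all protein-coding genes were kept. Core subunits carry the flavin and the iron-sulfur clusters or bind the quinone. Ndufv1, the NADH-binding subunit, kept 3 of 3, with 8, 12 and 13 reads in the labelled knockout and 14, 13 and 25 in the control. Ndufv2 kept both of its regions, and Ndufs1 and Ndufs7 each kept a single one. The regions of Ndufs1 and Ndufs7 lay nearer to another gene. So did the Ndufv1 region with 8 reads and the Ndufv2 region with 17 reads in the labelled knockout. Ndufs3 and Ndufs8 had none in either list. These core genes were chosen for description after their values were seen.

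The 10 control-only regions of complex I subunit genes had 9 to 16 reads. Ndufa13, an accessory subunit, had 3 control regions with 10, 11 and 13 reads and none in the labelled knockout. The region of Ndufb6 6.36 kb upstream had 12 reads and was control-only, while another Ndufb6 region 2.12 kb beyond the gene, with 9 reads, was called only in the labelled knockout. Ndufa12, Ndufb9 and Ndufs6 each had 1 control-only region (13, 9 and 10 reads), and the last pair also kept 1 region each. Ndufa2, Ndufa5 and Ndufa7 kept their single regions, with 14, 13 and 11 reads in the labelled knockout and 14, 15 and 16 in the control. The 19 genes of this symbol group with no region in either list were Ndufa3, Ndufa4, Ndufa8, Ndufa9, Ndufa10, Ndufa11, Ndufb1, Ndufb2, Ndufb3, Ndufb4, Ndufb4b, Ndufb4c, Ndufb5, Ndufc2, Ndufs3, Ndufs4, Ndufs5, Ndufs8 and Ndufv3.

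Complex I assembly factors, which help build the complex and are not part of it, had 6 regions in the labelled knockout at 5 of 8 genes and 10 in the control at 6. Of the control regions 6 were kept (60%, 31.3 to 83.2). Ndufaf3 and Ndufaf4 are known to act together early in assembly. The strongest Ndufaf3 region, inside the gene and 434 bp downstream of its start, had 33 reads (22.7 to 46.3) in the labelled knockout and 41 reads (29.4 to 55.6) in the control. At the Ndufaf4 start (chr4:24897906-24898202 in the control), the labelled knockout had 13 reads (6.92 to 22.2) and the control 36 reads (25.2 to 49.8). Ndufaf1 kept its region 6.41 kb away, with 16 reads in each library, and Ndufaf8 kept one with 17 reads in the labelled knockout and 15 in the control. Control-only regions lay near Ndufaf6 (13 and 8 reads), Ndufaf2 (11 reads) and Ndufaf3 (10 reads), and Ndufaf5 and Ndufaf7 had no region in either list.

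Complex II, succinate dehydrogenase, had 3 regions in each library, and all 3 were shared. Sdhb, the iron-sulfur subunit gene, had a region 3.23 kb upstream with 28 reads (18.6 to 40.5) in the labelled knockout and 19 reads (11.4 to 29.7) in the control. Its second region, inside the gene, had 12 reads in the labelled knockout and 21 in the control. In Sdha, the flavoprotein subunit gene, the region had 13 reads in the labelled knockout and 16 in the control. The membrane anchor genes Sdhc and Sdhd had none.

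Complex III, which passes electrons from coenzyme Q to cytochrome c, had 5 regions in the labelled knockout at 4 of 8 genes and 9 in the control at 5, of which 6 were kept (66.7%, 35.4 to 87.9). The strongest by control fold enrichment lay at the start of Uqcrc1, a core protein gene, with 21 reads (13.0 to 32.1) in the labelled knockout and 23 reads (14.6 to 34.5) in the control. Uqcrfs1, the Rieske iron-sulfur protein gene, kept both of its regions, with 19 and 14 reads in the labelled knockout and 21 and 20 in the control. At Uqcrh, the hinge protein gene, a single labelled-knockout region of 9 reads covered parts of the pair of control regions upstream, with 10 and 13 reads, and a further control region of 10 reads was control-only. The other control-only regions lay at Uqcr11 (9 reads) and at Uqcrc2, another core protein gene (8 reads). Uqcr10, Uqcrb and Uqcrq had no region in either list.

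**Figure D3:**
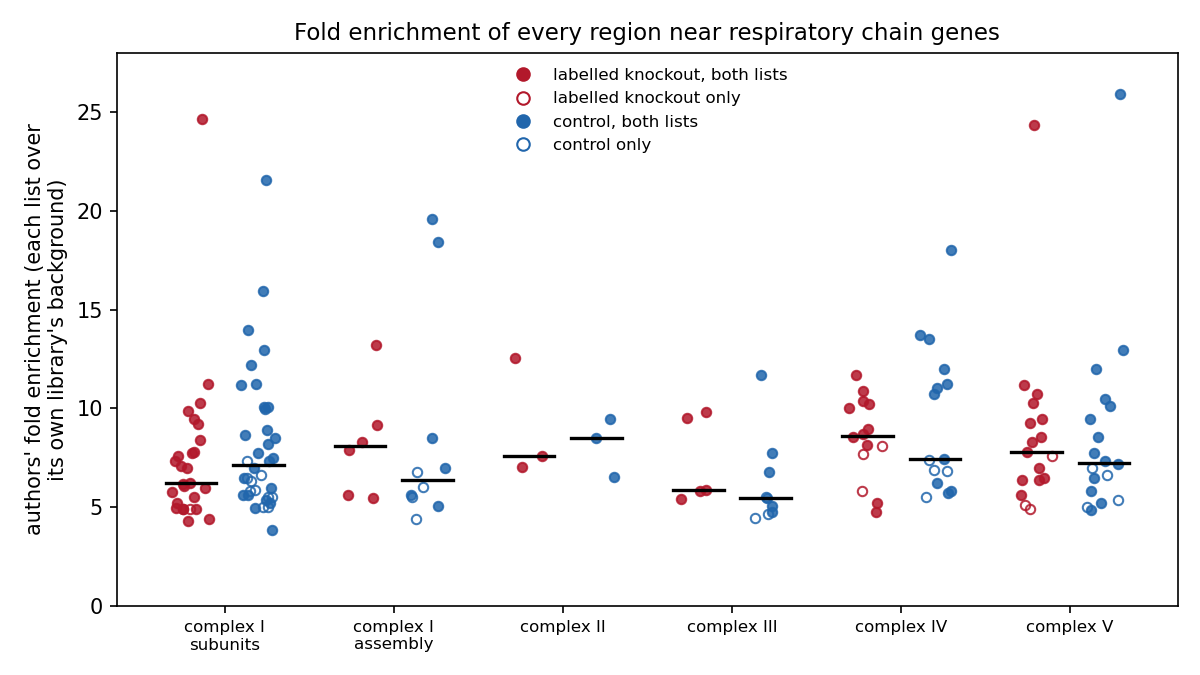
The authors' fold enrichment of every region near a member, by complex, with the labelled-knockout library on the left (red) and the control on the right (blue). Filled points are in both lists, open points in a single list, and black bars are medians; each list is relative to its own background, and the open control points lie between 4.38 and 7.36.

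Complex IV, cytochrome c oxidase, transfers electrons to oxygen and is the complex with tissue isoforms. It had 14 labelled-knockout regions and 15 control regions, each at 9 of 17 genes, and 11 control regions were kept (73.3%, 48.0 to 89.1). The heart and skeletal muscle isoform genes Cox6a2, Cox7a1 and Cox8b all had regions, and all 5 of their control regions were kept. Of all protein-coding genes 46.3% had a labelled-knockout region and 52.4% a control region, and 68.5% of control regions near them were kept. The isoform genes are too few to tell from these shares, and no difference was tested. Cox6a2 had 16 reads (9.15 to 26.0) in the labelled knockout and 23 reads (14.6 to 34.5) in the control at a site 2.03 kb outside the gene. Upstream of Cox8b the labelled knockout had 27 and 23 reads at sites 2.97 and 8.26 kb from the start, and the control 22 and 28. For Cox7a1, labelled-knockout regions of 23 and 8 reads lay across control regions of 14 and 11 reads, upstream of the gene.

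Of the widely expressed counterparts, Cox6a1 had a region inside the gene with 18 reads in the labelled knockout and 25 in the control, while Cox7a2 and Cox8a had no region in either list. Cox7a2l, Cox6b2 (a testis isoform), Cox6c, Cox7b2, Cox7c and Cox8c had none either. Cox4i1, the common isoform of subunit 4, kept regions 4.42 and 9.58 kb away, with 21 and 15 reads in the labelled knockout and 27 and 21 in the control. A further region of 14 reads between them was called only in the labelled knockout. Cox4i2, the isoform known from lung and low oxygen, kept regions 1.65 and 2.73 kb away, with 28 and 11 reads in the labelled knockout and 27 and 15 in the control.

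The strongest control region of complex IV lay 7.21 kb upstream of Cox5b, where the labelled knockout had 18 reads (10.7 to 28.4) and the control 36 reads (25.2 to 49.8). At Cox6b1 no region was shared, since its 3 control regions (10, 13 and 18 reads) had no counterpart and its labelled-knockout region 8.70 kb upstream (10 reads) had none either. Cox5a likewise had 1 region in each list at different places, a labelled-knockout region of 15 reads 6 bp outside the lower-coordinate end of the span and a control region of 13 reads 9.10 kb from the gene.

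Complex V had 17 labelled-knockout regions at 9 of 17 genes and 18 control regions at 10, of which 14 were kept (77.8%, 54.8 to 91.0). The member region with the highest control fold enrichment lay at the start of Atp5g2, a gene for the c subunit of the proton-driven rotor ring (chr15:102671015-102671490 in the control). It had 47 reads (34.5 to 62.5) in the labelled knockout and 51 reads (38.0 to 67.1) in the control, with a fold enrichment of 24.3 in the labelled knockout and 25.9 in the control. Atp5mpl, a small subunit of the membrane part, had kept regions 71 bp and 3.02 kb outside the gene, with 21 reads at each in the labelled knockout and 30 and 25 reads in the control. Atp5d, the delta subunit of the central stalk, had kept regions with 18 and 15 reads in the labelled knockout and 23 and 18 reads in the control, and control-only regions with 9 and 13 reads.

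Other control-only regions of complex V lay near Atp5g1, another c subunit gene (13 reads), and near Atp5a1 on chromosome 18, the alpha subunit of the catalytic head (11 reads). Regions called only in the labelled knockout lay 1.25 kb upstream of Atp5g2 (9 reads), 6.28 kb from Atp5b, the catalytic beta subunit gene (9 reads), and 3.69 kb upstream of Atp5o, a stalk subunit gene (13 reads). Atp5b and Atp5o also had kept regions, with 17 reads in the labelled knockout and 25 in the control for Atp5b, and 18 and 18 reads in the labelled knockout and 26 and 17 in the control for Atp5o. Atp5h, another stalk subunit gene, kept a region with 16 reads in the labelled knockout and 18 in the control. Atp5e, Atp5g3, Atp5j, Atp5j2, Atp5l, Atp5md and Atp5pb had no region in either list.

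The reads at kept regions were then set side by side to see which sites differed most between the libraries, a comparison chosen after the data were examined. In chromatin pooled from many cells, fewer bound cells and less binding per cell cannot be told apart. Over all 13832 kept regions of the series the median ratio of labelled-knockout to control reads was 0.867, and at the 66 kept regions of the members it was 0.833. A kept region had to be called in the labelled knockout. Control-only regions are therefore left out, and low ratios may be under-represented. Divided by the series median, the interquartile range of the member ratios ran from 0.804 to 1.14, and near all protein-coding genes from 0.814 to 1.22. A ratio at least 2-fold below the series median was found at 2 of the 66 member regions (3.03%), where 1.19% of 10201 kept regions near all genes were that low. These were the starts of Ndufaf4, with a ratio of 0.361 (exact binomial 95% interval 0.176 to 0.697), and Ndufa6, with 9 reads in the labelled knockout and 25 in the control and a ratio of 0.360 (0.148 to 0.797). The Cox5b region came next at 0.5 (0.267 to 0.904), an interval that covers the series median. These regions were picked as the lowest of the 66. Intervals made for single regions make no allowance for that choice, so they do not set these sites apart.

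In the other direction 1 member region (1.52%) was at least 2-fold above the series median, where 1.4% of the regions near all genes were. It was the weaker Cox7a1 control region, with a ratio of 2.09 (0.979 to 4.75), and the labelled-knockout region it was paired with is the same as that of the neighbouring control region. The strongest member sites by control fold enrichment varied in their ratio. It was 0.922 (0.607 to 1.40) at Atp5g2, 0.939 (0.614 to 1.43) inside Ndufa4l2 and 0.805 (0.493 to 1.30) inside Ndufaf3, and the next in that order were the low ratios of Ndufaf4 and Cox5b and, at the start of Ndufab1, 0.581 (0.306 to 1.07).

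**Figure D4:**
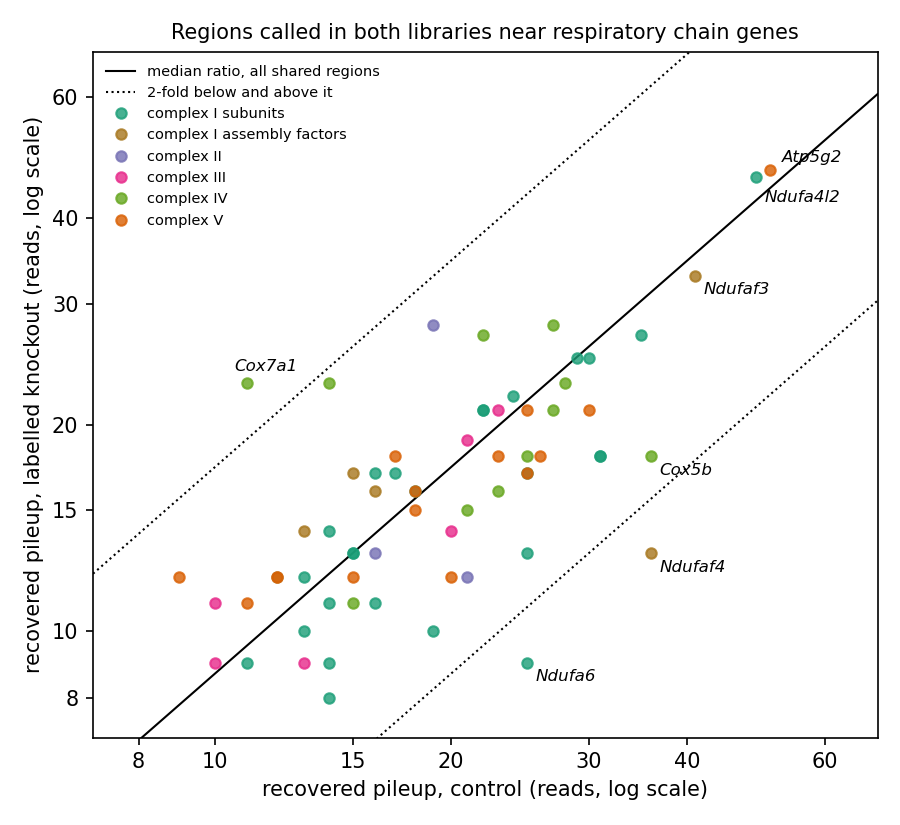
Reads at the summit (recovered pileup, log axes) of the 66 kept regions near members, in the control (horizontal) and the labelled knockout (vertical), coloured by complex. The solid line is the median ratio over all kept regions of the series, 0.867, the dotted lines lie 2-fold below and above it, and Ndufaf4 and Ndufa6 are the points under the lower one.

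Members with a CTCF summit at the start were 14.7% of those with a listed start in each library, and every such control region was kept. Starts were listed for 75 members. In each library 11 of the 75 (8.39 to 24.4%) had a summit within 250 bp of a start, against 5.23% of 16457 protein-coding genes in the labelled knockout and 7.83% in the control. With 1 kb, 14 members (18.7%) had a labelled-knockout summit and 17 (22.7%) a control summit, against 9.65% of all genes in the labelled knockout and 13.8% in the control. Counted by region, 14 of 54 labelled-knockout regions (25.9%, 16.1 to 38.9) and 18 of 66 control regions (27.3%, 18.0 to 39.0) lay within 1 kb of a start. Near all genes it was 16.3% of labelled-knockout and 19.6% of control regions, with each region placed at its nearest listed start. All 11 control regions within 250 bp were kept (74.1 to 100%), against 63.0% of 1271 near all genes. The control fold enrichment of those regions also differed, with a median of 11.7 at the 11 member starts and 7.42 at starts of all genes, and its part in the kept share was not tested. Those 11 belonged to Ndufa6, Ndufab1, Ndufb7, Ndufb10, Ndufc1, Ndufv1, Ndufaf4, Uqcrc1, Atp5c1, Atp5g2 and Atp5k. Within 1 kb, 15 of 18 were kept (83.3%, 60.8 to 94.2), against 60.1% of 2388, and the control-only ones were at Ndufa12, Ndufa13 and Atp5d.

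Within their own lists, the 11 start regions within 250 bp had a median fold enrichment of 6.34 in the labelled knockout, where the other member regions had 7.56, and 11.7 in the control, where the others had 6.63. Their median was 17 reads in the labelled knockout and 25 in the control, and the median of the ratios was 0.862, near the series value. Of the 11, 6 had a ratio below the series median. Near all genes the median ratio was 0.800 at 801 kept regions within 250 bp of a start and 0.864 at 7627 farther away. The listed start can differ from the outermost end of a gene, as in Cox5a, whose labelled-knockout region at the end of the span lay at -3910 bases from the listed start.

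**Figure D5:**
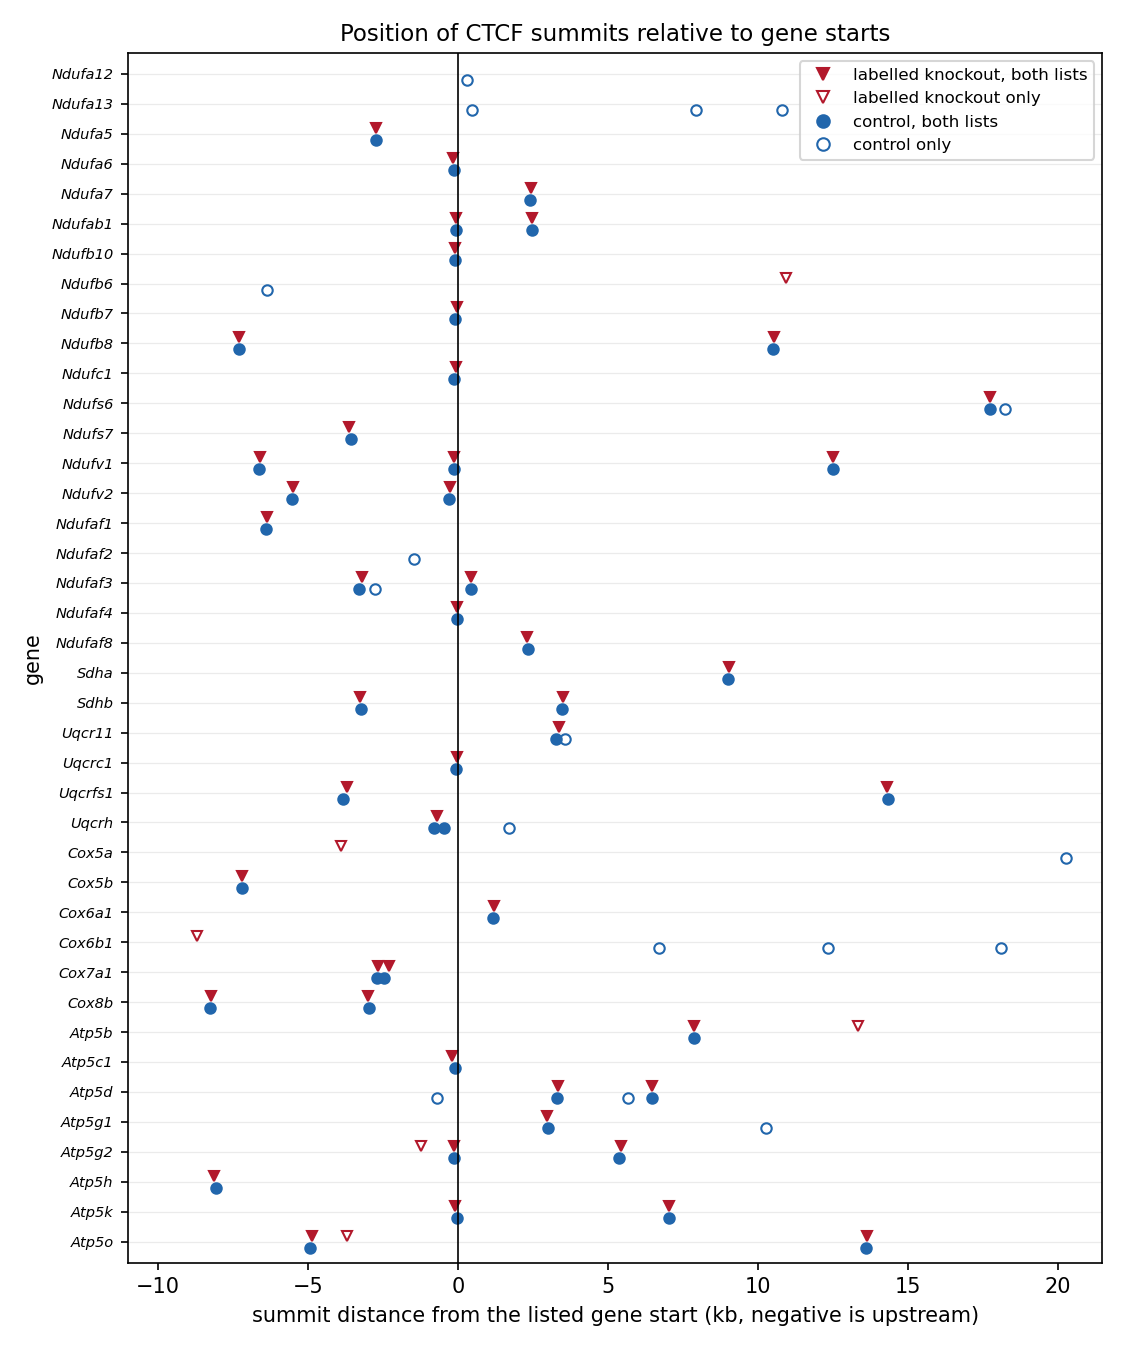
Distance (kb, negative is upstream) of each summit from the nearest listed start, for the members with a listed start and a region, with labelled-knockout summits as triangles above control summits as circles. Filled symbols are in both lists and open ones in a single list, and all summits within 250 bp of the start are filled.

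Genes that serve the respiratory chain outside the symbol rule were counted in the same way. Of all protein-coding genes 46.3% had a labelled-knockout region and 52.4% a control region, and 68.5% of control regions near them were kept. Among 42 other assembly factors and cytochrome c, 26 labelled-knockout regions lay near 21 genes and 32 control regions near 22, and 24 of the control regions were kept (75%, 57.9 to 86.7). The strongest kept ones by control fold enrichment were near Foxred1, a complex I assembly factor (14 reads in the labelled knockout, 34 in the control), Taco1, a translational activator for complex IV (9 in the labelled knockout, 27 in the control), and Sco2, a copper chaperone for complex IV (16 in the labelled knockout, 31 in the control). Inside Taco1, a labelled-knockout region of 23 reads lay across control regions of 23 and 13 reads, and inside Sco2 each library had a region of 14 reads. The strongest control-only regions lay near Ecsit (15 reads), Cox15, needed for heme a (13 reads), and Ttc19, which acts on complex III (17 reads).

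Among 14 regulator genes, 11 labelled-knockout regions lay near 8 genes and 14 control regions near 9, with 10 kept (71.4%, 45.4 to 88.3). That interval covers the 68.5% kept near all protein-coding genes. Kept regions lay near the orphan receptor gene Esrra (23 reads in the labelled knockout, 27 in the control), its relative Esrrb and the co-activator gene Ppargc1a. Esrrb had 19 and 15 reads at its kept regions in the labelled knockout and 31 and 10 in the control. Ppargc1a had 10 reads near the end of its span in the labelled knockout and 23 in the control, while inside the gene it had 21 reads in the labelled knockout and 14 in the control. Control-only regions of these genes were near Nrf1 (12 reads), Polrmt, the mitochondrial RNA polymerase gene (9 reads), and Tfam, the mitochondrial DNA-binding factor gene (9 reads), which also had kept regions. The region called only in the labelled knockout lay inside Yy1 (13 reads).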

How the data were processed

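CTCF ChIP-seq regions of 1 library labelled CTCF knockout and 1 control library were used as deposited. Bowtie2 2.2.6, SAMtools 0.1.19, MACS2 and the mm10 build are named in the submitters' processing notes. The sources used here do not give the MACS2 settings. For each region the deposited lists give a score, a fold enrichment (a ratio over background), −log10 p and q values and the summit's offset. Regions were called per library, as their names show.

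Read depth is unknown. The whole pileup at each summit was solved from the deposited fold enrichment and −log10 p under MACS2's formulas and gave the −log10 p within 0.001 for 100% of regions. The lowest background in the labelled knockout was 0.846 of that in the control. Recovery, overlap and distance steps were tested on simulated data.

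Gene spans and promoter windows came from RefSeq tables of GRCm38.p6; starts were listed for 75 of the 93 members, and Coa1 was not matched. Values of 1 complex I subunit gene are counted in the totals but not reported here by themselves. The members and lists were chosen with earlier results of these data known. Genes named were, per complex, up to 3 with the strongest kept and up to 3 with the strongest control-only region, those with a region only in the labelled knockout, and the complex IV isoforms; genes named beyond these, such as those at gene starts, were chosen after their values were seen. Shares have Wilson 95% intervals. The work ran in Python 3.11.15 with scipy 1.17.1, pandas 2.3.3, numpy 2.4.6 and, for plots, matplotlib 3.10.9. Alternatives changed the peak threshold, the overlap rule, the window, the start distance and the gene set.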

Additional observations from a re-analysis of the deposited data

How the results depend on the processing

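No paired analysis was possible because there was 1 library of each genotype. Of 63 values recomputed under another setting, 50 stayed within counting error or within 1.5 times the reported count and 13 moved. The share of control regions kept stayed inside its interval in all 8 alternatives (63.7% with a reciprocal overlap of at least 50% to 74.1% without the assembly factors). Labelled-knockout regions without a control counterpart made up 19.4% with that reciprocal overlap, against 9.72% as reported. With a window of 2 kb there were 35 labelled-knockout regions at 30 members and 45 control regions at 33, and with 50 kb 172 regions at 74 members and 226 at 79, since the window itself sets how many summits are taken in. The share of control regions within 1 kb of a start was 27.3%, and 52.9% with the window of 2 kb, 16.7% within 250 bp and 59.1% within 5 kb. Differences of 2-fold in reads, added after the data were examined, kept to 2 or 3 lower regions, and no region was 2-fold higher (0) when at least 15 reads were required in the control. Genes under 20 kb were also added then. The pileups of control-only regions, 8 to 18 reads, limit what can be said of any single loss.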

Other observations

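Many CTCF regions near respiratory chain genes lay nearer to another gene. A member was the nearest protein-coding gene for 46 of the 72 labelled-knockout regions and 56 of the 91 control regions. At 36 control regions another protein-coding gene lay within 1 kb of the summit. The strong region inside Ndufaf3 was also within 1 kb of Dalrd3, and the kept region inside Atp5d within 1 kb of Midn. The region 7.31 kb upstream of Ndufb8, with 27 reads in the labelled knockout and 35 in the control, lay within 1 kb of Hif1an, an oxygen-sensing hydroxylase gene. Both regions of Cox4i2 lay within 1 kb of Bcl2l1, a gene that protects cells from death, and the region of Ndufs1 (25 reads in the labelled knockout and 30 in the control) within 1 kb of Eef1b2, a translation elongation factor gene.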
